A study of Mus musculus with 3 samples.

Results

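Sftpd, Rgs16, Tinag and Crygs were chosen on their array levels, because the liver expressing YAP (2SA) read far above both other livers on their probes. Their levels are therefore given as a description and no test was applied to them. They made up 4 of the 20284 genes that could be named on the array, and 5 of its 55681 probes, since Sftpd had 2 probes and the others 1 each. Each probe was read from 1 spot per array, and all 5 probes were well above background on all 3 arrays. The choice named no numerical limit.

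The 3 arrays held liver RNA of c57BL6/J mice, 1 array for each of 3 forms of human YAP, taken 2 days after gene delivery. The groups were YAP (WT), the unmutated form, and YAP (1SA) and YAP (2SA), which are mutants that escape inhibition by the Hippo pathway. Per the study's methods, Myc-tagged YAP was delivered to male mice of 8 weeks by hydrodynamic injection, a rapid and large volume of plasmid solution given into the tail vein, and a hepatocyte-specific enhancer and promoter drove its expression. This route reaches only some hepatocytes, so each RNA mixed cells with and without the construct. All 3 groups received a YAP plasmid, and a liver without YAP was not analysed here. The sources used here do not say if livers were pooled for an array. With 1 array per group, a difference between constructs cannot be told apart from a difference between the liver samples, and it has no replicate check.

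YAP is a transcriptional coactivator without a DNA-binding domain of its own. Hippo pathway kinases phosphorylate it and keep it out of the nucleus, where it would otherwise bind TEAD factors and raise genes such as Ccn2 and Ccn1. The 4 genes have unrelated products and most are better known from other organs. Sftpd encodes surfactant protein D, a secreted collectin that binds sugars on microbes and is abundant in the lung. Rgs16 encodes a regulator of G protein signalling, which speeds the return of G protein alpha subunits to their inactive state and is known in liver to follow feeding and fasting. Tinag encodes tubulointerstitial nephritis antigen, a glycoprotein of kidney tubule basement membranes. Crygs encodes gamma-S crystallin, a structural protein of the eye lens.

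The sequence at the start of each gene is shown to let the genes be compared outside the array values. RefSeq windows of 250 bases before and 50 bases after the gene start, on build GRCm38.p6, were found for Rgs16, Tinag and Crygs. The entry for Rgs16 is chr1:153740103-153740402 on the plus strand, that for Tinag is chr9:77045732-77046031 on the minus strand and that for Crygs is chr16:22811361-22811660 on the minus strand. Each is written 5′ to 3′ in the direction of the gene, and capitals mark matches to the motifs searched.
Rgs16: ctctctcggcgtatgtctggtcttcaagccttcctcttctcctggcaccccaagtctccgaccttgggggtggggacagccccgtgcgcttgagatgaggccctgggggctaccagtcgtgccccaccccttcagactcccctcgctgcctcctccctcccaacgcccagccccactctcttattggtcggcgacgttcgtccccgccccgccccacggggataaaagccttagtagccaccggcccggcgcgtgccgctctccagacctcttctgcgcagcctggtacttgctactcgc
Tinag: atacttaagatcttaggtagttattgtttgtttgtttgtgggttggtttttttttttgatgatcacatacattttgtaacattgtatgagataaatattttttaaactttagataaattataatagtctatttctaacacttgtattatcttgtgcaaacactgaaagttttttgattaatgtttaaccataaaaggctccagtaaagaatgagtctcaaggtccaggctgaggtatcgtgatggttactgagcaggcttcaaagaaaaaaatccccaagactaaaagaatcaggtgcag
Crygs: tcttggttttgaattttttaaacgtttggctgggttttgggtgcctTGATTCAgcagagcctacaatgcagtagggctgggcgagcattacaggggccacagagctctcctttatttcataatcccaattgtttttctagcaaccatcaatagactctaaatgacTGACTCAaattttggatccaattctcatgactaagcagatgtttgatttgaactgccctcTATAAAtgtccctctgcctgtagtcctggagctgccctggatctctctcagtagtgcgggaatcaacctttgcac
The motifs were CATTCC, the core bound by TEAD factors, TGANTCA, bound by AP-1, the TATA box letters TATAAA and the E-box CACGTG, each on both strands. Only the Crygs window held any of them. It held TGATTCA at 204 bases and TGACTCA at 85 bases upstream of the start, and TATAAA at 25 bases upstream. Of all 32851 windows of this length, 7.81% held the AP-1 letters, 13.6% the TATA letters, 14.7% the TEAD letters and 7.15% the E-box letters. A match describes the letters and is not a site. The windows also differed in base composition. The share of G and C was 66.0% for Rgs16, 31.0% for Tinag and 44.3% for Crygs, against a median of 52.7% over all windows and a range from the 5th to the 95th percentile of 36.3% to 73.7%. Tinag lay below that range and the other 2 windows lay within it.

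Sftpd was read by 2 probes of the same transcript (NM_009160). The brighter probe had an intensity, the brightness of a spot after background subtraction, of 781 ± 78.2 on the WT array and 287 ± 28.8 on 1SA, against 3735 ± 374 on 2SA, where ± is the scanner software's own error for 1 spot. The dimmer probe read 232 ± 23.4 on WT and 94.8 ± 9.91 on 1SA, against 1180.1 ± 118 on 2SA. Both probes were highest on 2SA, intermediate on WT and lowest on 1SA. After each array was scaled to the 75th percentile of its own intensities, 2SA exceeded WT by 2.12 ± 0.20 on the log2 scale on the brighter probe, a 4.35-fold difference, and by 2.21 ± 0.20 on the dimmer probe, 4.63-fold. Against 1SA the differences were 3.49 ± 0.20 and 3.43 ± 0.21, or 11.2-fold and 10.7-fold. The 1SA array lay below WT by 2.58-fold on the brighter probe and 2.32-fold on the dimmer probe. The probes differed from each other by -0.09, 0.06 and -0.15 in these 3 log2 differences, which is within the scanner error of each. In whole liver RNA, fewer cells of a type and less RNA per cell cannot be told apart.

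Rgs16 (NM_011267) was read by 1 probe, with an intensity of 866 ± 86.7 on WT and 481 ± 48.2 on 1SA, against 5614 ± 561 on 2SA. It had the same order as Sftpd, with 2SA far above the others and 1SA lowest. The 2SA value exceeded WT by 2.56 ± 0.20 on the log2 scale, or 5.90-fold, and 1SA by 3.33 ± 0.20, or 10.07-fold. WT was 1.71-fold above 1SA.

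Tinag (NM_012033) read 114 ± 11.9 on WT and 56.2 ± 6.30 on 1SA, against 572 ± 57.3 on 2SA. Its order was again 2SA, then WT, then 1SA. The log2 difference of 2SA was 2.20 ± 0.21 from WT, 4.58-fold, and 3.13 ± 0.22 from 1SA, 8.78-fold. WT was 1.92-fold above 1SA. Normexp background correction, which shrinks the differences of dim probes, lowered both 2SA differences of Tinag to 1.63 and 2.10.

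Crygs (NM_009967) departed from this order. Its probe read 72.5 ± 7.93 on WT and 220.1 ± 22.2 on 1SA, against 1706 ± 171 on 2SA. WT was lowest here and 1SA lay between. The 2SA value exceeded WT by 4.42 ± 0.21 on the log2 scale, 21.4-fold, and 1SA by 2.74 ± 0.20, 6.69-fold. The 1SA array was 3.20-fold above WT. With normexp the difference of 2SA from WT was 3.55. No order changed under any scaling or background correction tried.

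**Figure D1:**
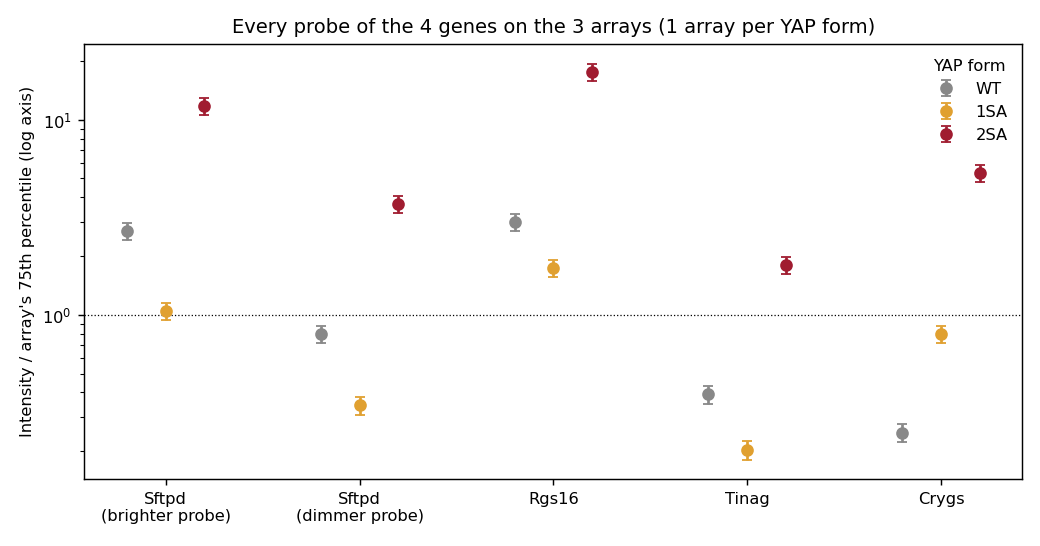
Levels of the 5 probes on the WT, 1SA and 2SA arrays as intensity over each array's 75th percentile on a log axis (dotted line, the percentile itself), 1 array per construct, with bars for the scanner error of the spot. The 2SA point is the highest on each probe, the 1SA point is the lowest for Sftpd, Rgs16 and Tinag, and WT is the lowest for Crygs.

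The 2SA differences defined the genes, so their place among all probes is descriptive. Levels on 2SA were at least 2-fold above both WT and 1SA for 134 (0.481%) of the 27858 probes measured on every array, and all 5 probes were among them by choice. Taken singly, 0.923% of probes were at least 2-fold higher on 2SA than on WT and 1.89% were so against 1SA. Ranked by the smaller of both differences, Crygs was 7, Rgs16 was 9, the dimmer Sftpd probe was 17, Tinag was 18 and the brighter Sftpd probe was 21. On 2SA minus WT alone, Crygs ranked 1 of all these probes. On 2SA minus 1SA alone, the Sftpd probes ranked 3 and 4, Rgs16 ranked 5, Tinag 7 and Crygs 18.

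The position of 1SA relative to WT was not named in the choice, although both arrays entered it, so it is also only described. On 1SA, 273 of 28032 probes (0.974%) were at least 2-fold lower than on WT, and both Sftpd probes were among them. At least 2-fold higher levels were read on 209 probes (0.746%), Crygs among them. Rgs16 and Tinag reached neither. With normexp the dimmer Sftpd probe no longer reached 2-fold, at -0.73. Among the 134 probes high on 2SA, 98 were lower on 1SA than on WT and 36 were higher, with a median 1SA minus WT of -0.21 on the log2 scale. Of these 134 probes, 12 were at least 2-fold lower on 1SA than on WT and 2 were at least 2-fold higher. The shares over all probes measured on WT and 1SA were the 0.974% and 0.746% given above. Crygs held 1 of those 2.

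Spots close to the 5 probes on the array surface were read as a check of local effects. Within 2 rows and 2 columns of each spot, 10 to 14 probes were measured on all 3 arrays. Their median 2SA minus WT lay between -0.06 and 0.12, and their median 2SA minus 1SA between -0.17 and 0.22. Around Sftpd, Rgs16 and Crygs 0 of these probes were at least 2-fold above both other arrays on 2SA, and around Tinag 1 was. Over all probes measured on every array the share was 0.481%. Of 399 probes with repeated spots, 287 to 295 were measured on an array. Their median SD was 0.07 on each array, with a 95th percentile of 0.23 to 0.33, and the median corresponds to an SD of 0.10 for a difference.

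Among 13137 named genes, each taken by its brightest measured probe, 72 (0.548%) were at least 2-fold higher on 2SA than on both other arrays. Crygs ranked 3, Rgs16 ranked 4, Tinag ranked 9 and Sftpd ranked 12 by the smaller difference. The others of the highest 15 were Zfp788 at 2.99, Csf1, the macrophage growth factor, at 2.77 on its brightest probe, Mab21l4 at 2.55, Fibin at 2.48, Zfp185 at 2.33, Gal3st2 at 2.24, Ccn2 at 2.15, the glypican Gpc3 at 2.14, Fads3 at 1.97, Ccdc9b at 1.89 and the coagulation factor XIII subunit F13a1 at 1.88. The 2 other measured probes of Csf1 gave 1.65 and 1.76. With normexp Zfp788 was at 1.502, Zfp185 at 1.01 and Gpc3 at 0.91, the last under 2-fold. Of these 15 genes, 12 were lower on 1SA than on WT, with Sftpd, Rgs16 and Tinag among the 12, and 10 lay within 0.5 of WT. Over all 13137 genes the median 1SA minus WT was -0.002. Sftpd and Crygs marked the ends of the range of the 15 in 1SA minus WT, at -1.37 and 1.68. In the promoter windows of 13 of these genes, the AP-1 letters were found for Crygs, Mab21l4 and Zfp788, the TEAD letters for Fibin, Gal3st2 and Zfp185, the TATA letters for Crygs and Zfp788, and the E-box letters for 0. Over all windows the shares were 7.81%, 14.7%, 13.6% and 7.15%.

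**Figure D2:**
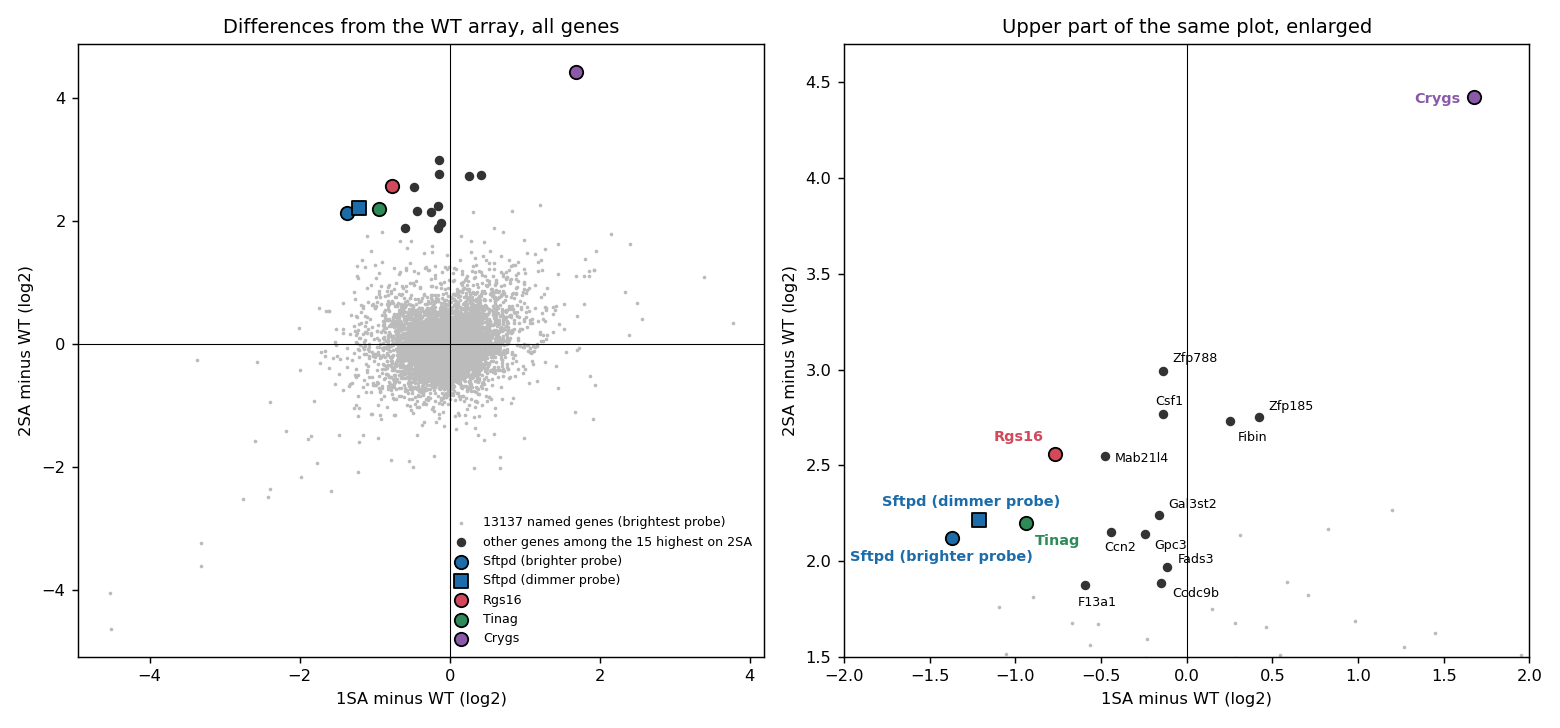
Difference of 1SA from WT (x axis, log2) against the difference of 2SA from WT (y axis, log2) for 13137 named genes in grey, with the 4 genes in colour (square for the dimmer Sftpd probe) and the others of the 15 highest in black. Sftpd, Rgs16 and Tinag lie left of 0 and close together, while Crygs lies apart at 1.68 and 4.42. The 4 genes were chosen on these arrays, so their high place is by choice.

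The genes nearest in pattern were found by the distance between their log2 differences of 1SA and of 2SA from WT, which summarises 3 arrays. Sftpd lay nearest to Tinag at 0.44, Muc13 at 0.45 and the complement receptor C5ar1 at 0.56. Rgs16 lay nearest to Mab21l4 at 0.30, Tinag at 0.40 and Ccn2 at 0.52. Tinag lay nearest to C5ar1 at 0.38, Rgs16 at 0.40 and Sftpd at 0.44. Within a distance of 1 there were 16 genes for Sftpd, 15 for Rgs16 and 26 for Tinag. Crygs had 0 genes within that distance. Its nearest was Zfp185 at 2.09, followed by the repressor Bcl6 at 2.21 and Fibin at 2.21.

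Genes beside each of the 4 on the chromosome, up to 3 on each side in gene order of assembly GRCm38.p6, were read next. Of 23 such genes, 19 had a probe and 12 were measured on all 3 arrays. Over all 13137 named genes, 0.548% were at least 2-fold higher on 2SA than on both others. A count among 12 genes is therefore not read as a result. Of the 12, only Lrrc1, near Tinag, passed that limit. It read 40.3 on WT and 31.4 on 1SA, against 102 on 2SA, with differences of 1.21 and 1.49, and its smaller difference was 0.63 with normexp. Beside Sftpd lie its fellow collectins Mbl1 and Sftpa1. Mbl1 read 4989 on WT and 5273 on 1SA, against 6342 on 2SA, and Sftpa1 read 23.9, 31.6 and 36.2. Neither had the low 1SA value of Sftpd. Rgs8, next to Rgs16, was not well above background on any array. Etv5, near Crygs, read 518 on WT and 544 on 1SA, against 1030.3 on 2SA, and Tbccd1 next to Crygs read 664, 631 and 706.

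**Figure D3:**
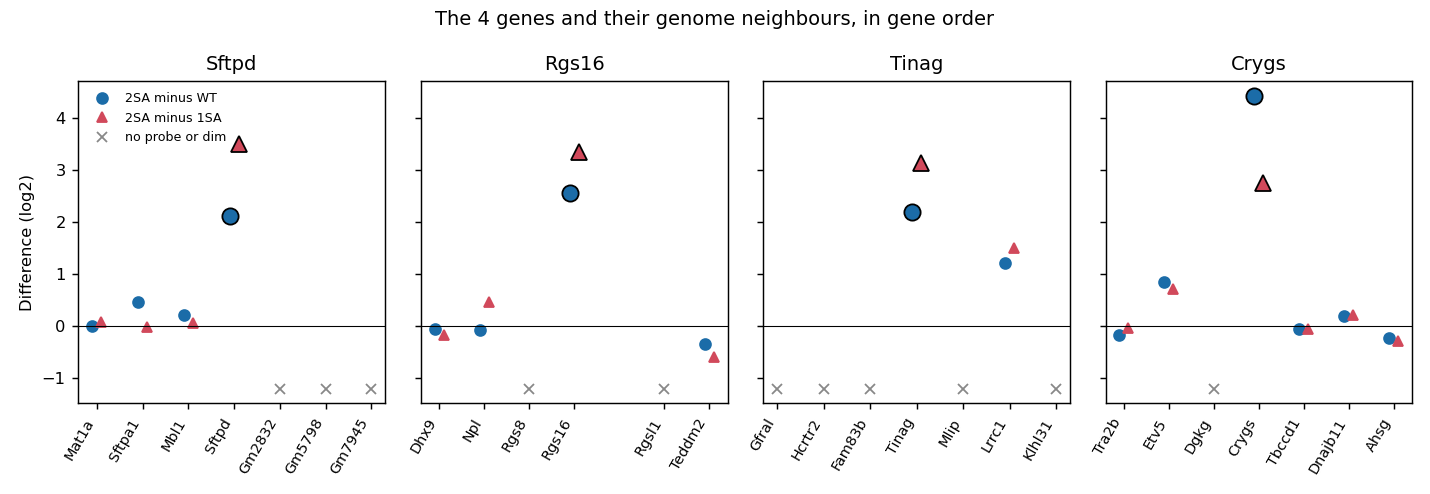
Difference of 2SA from WT (circles) and from 1SA (triangles) on the log2 scale for each of the 4 genes, outlined, and the 23 genes near them in genome order, with crosses for genes without a probe measured on all arrays. The 4 genes, chosen on these differences, stand above their measured neighbours. Lrrc1 is the single neighbour past 2-fold in both differences, against 0.548% of all named genes.

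The other members of each gene's family or setting were compared from lists chosen with earlier results of these arrays known. Over all 13137 genes the median was -0.03 for 2SA minus WT, -0.03 for 2SA minus 1SA and -0.002 for 1SA minus WT on the log2 scale, the background for the list medians below. The share of genes at least 2-fold above both others on 2SA was 0.548%. At this share a short list holds few such genes, so the counts below are not read as results about the lists. Among the other collectins, ficolins and surfactant proteins, 9 of 12 were measured and 0 were at least 2-fold above both others on 2SA, with a median of 0.12 against WT and -0.02 against 1SA. The mannose-binding lectin Mbl2 read 57457 on WT and 55431 on 1SA, against 84883 on 2SA. Colec10 and Colec11 went the other way from Sftpd. Colec10 was at -0.95 from WT and -1.77 from 1SA on 2SA, and Colec11 at -0.71 and -1.07. Of the 9 measured, 6 were higher on 2SA than on WT and 4 were higher than on 1SA. Sftpb and Sftpc, the defining lung surfactant proteins, were not well above background on any array.

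In the RGS family without Rgs16, 11 of 20 were measured and 0 passed 2-fold over both. The family median was 0.06 against WT and 0.54 against 1SA, and 1SA lay below WT with a median of -0.48. Only 3 of the 11 were higher on 1SA than on WT. Of the G protein alpha and beta subunits, on which RGS proteins act, 14 of 15 were measured and 0 passed, with medians of -0.04 and 0.04. Genes that respond to carbohydrate in liver, the setting in which Rgs16 is known, had 1 of 13 measured genes past 2-fold. It was Txnip, a glucose-responsive arrestin, at 1924 on WT and 1213 on 1SA, against 4997 on 2SA. Txnip was lowest on 1SA, like Rgs16, and exceeded WT by 1.24 and 1SA by 1.83 on the log2 scale. The list median was 0.10 against WT and -0.15 against 1SA. Most of the list differed from Txnip. On 1SA, 9 of the 13 were higher than on WT, Fasn by 1.30, and only 5 of the 13 were higher on 2SA than on 1SA.

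Basement membrane genes, the setting of Tinag, had 0 of 21 measured genes past 2-fold, with medians of 0.04 and 0.28. Tinagl1, the paralog of Tinag, read 290.3 on WT and 222 on 1SA, against 387 on 2SA. Its order matched that of Tinag, with differences of 0.28 from WT and 0.59 from 1SA. Of 18 other crystallins, 9 were measured on all 3 arrays and 8 on none. Cryab, the small heat shock protein alpha-B crystallin, was the only one past 2-fold, at 505 on WT and 406 on 1SA, against 1564 on 2SA. It exceeded WT by 1.49 and 1SA by 1.73, and on 1SA it was below WT, where Crygs was above.

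Known YAP/TEAD targets had 2 of 21 measured genes past 2-fold over both, with medians of 0.20 against WT and 0.33 against 1SA. Over all genes the share past this limit was 0.548%. The median against WT was 0.61 with the stricter filter on dim probes and 0.10 with normexp. Ccn2, a matricellular growth factor, read 633 on WT and 441 on 1SA, against 3092 on 2SA, the order of Sftpd, Rgs16 and Tinag. By real-time PCR, the paper reports a rise of this gene, as ctgf, with the active YAP mutants and not with YAP (WT). On these arrays Ccn2 was at -0.44 in 1SA minus WT on the log2 scale. The array order of 1SA and WT thus differed from the PCR result, and the reason was not tested. Ccn1 read 356 on WT and 507 on 1SA, against 1453 on 2SA, the order of Crygs. The differences of Ccn1 were 1.89 from WT and 1.31 from 1SA.

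**Figure D4:**
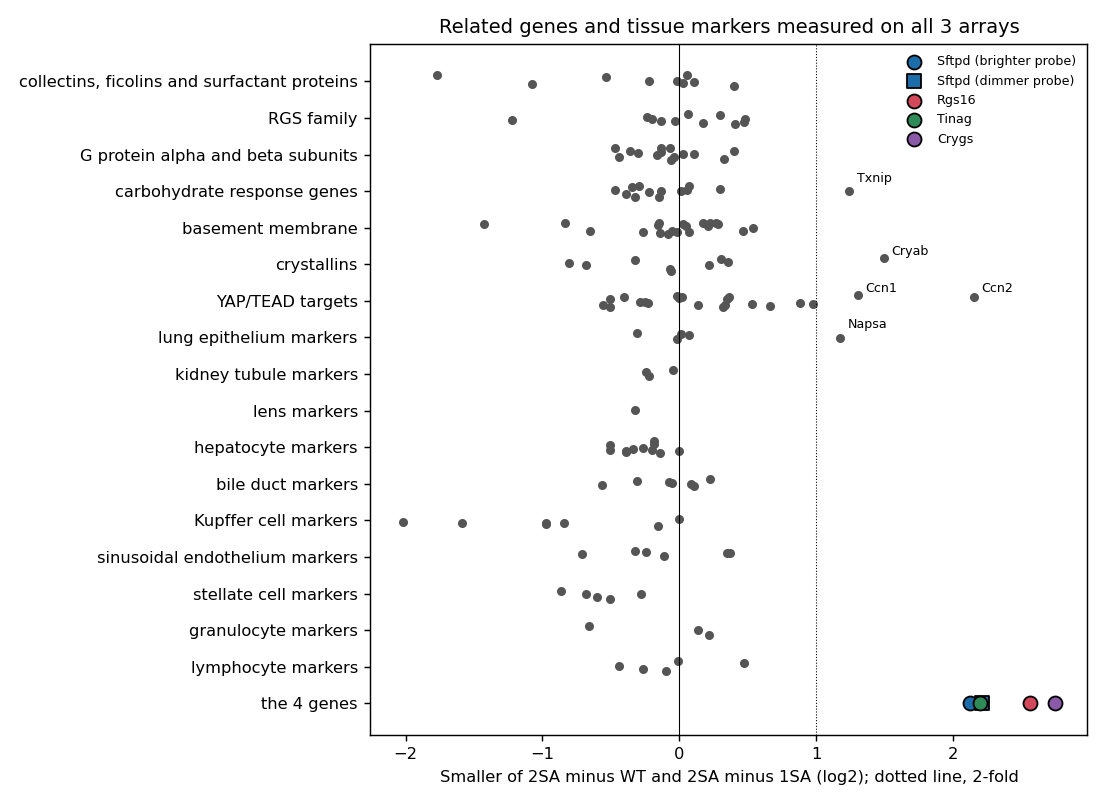
The smaller of 2SA minus WT and 2SA minus 1SA (x axis, log2) for each measured gene of every list, 1 point per gene, with the 4 genes in colour on the lowest line and 2-fold as a dotted line. Only Txnip, Cryab, Ccn1, Ccn2 and Napsa pass 2-fold among the list genes, and Ccn2 lies highest at 2.15.

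Markers of the organs in which these genes are better known were often not well above background. That also held for the array as a whole, where 27858 of the 55681 probes were measured on all 3 arrays. The lung list below lay near that share. Of 9 lung epithelium markers, 5 were measured on all 3 arrays and 3 on none. Napsa was the only one past 2-fold, at 59.2 on WT and 35.4 on 1SA, against 147 on 2SA, and its smaller difference fell from 1.18 to 0.64 with normexp. Of 10 kidney tubule markers, 3 were measured on all and 4 on none, with 0 past 2-fold. Of 9 lens markers, 1 was measured on all and 7 on none. The labelled tissue was checked on hepatocyte markers. All 11 with a probe were measured on all arrays, and their summed level was 4804 times the 75th percentile on WT, 5322 on 1SA and 4319.7 on 2SA.

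Markers of other liver cell types also differed between the arrays. All 7 bile duct markers were measured, with 0 past 2-fold on 2SA, a median of -0.06 against WT and 0.74 against 1SA. Their summed level was 13.4 on WT and 4.57 on 1SA, against 11.1 on 2SA. Most of that sum came from 1 gene, Spp1, which read 3536 on WT and 1009 on 1SA, against 3132 on 2SA. Over the 7 markers the median 1SA minus WT was -0.73. All but Cftr were lower on 1SA than on WT, as were Sftpd, Rgs16 and Tinag. The part of bile duct cells in the levels of Sftpd, Rgs16 and Tinag was not tested. All 7 Kupffer cell markers were measured. Their summed level was 237 on WT and 179 on 1SA, against 136 on 2SA, lowest where the 4 genes were highest. Most of that sum came from Cd5l and Marco, at 33571 and 15275 on WT against 20581 and 5571 on 2SA. Over the 7 markers the median was -0.90 for 2SA minus WT and -0.42 for 2SA minus 1SA. Only 2 of the 7, Adgre1 and Csf1r, were higher on 2SA than on 1SA. Adgre1 was at -0.16 from WT and 0.33 from 1SA. Clec4f, a Kupffer cell lectin, lay lowest against 1SA, with -1.56 from WT and -2.02 from 1SA on the log2 scale, while Csf1r, the receptor for Csf1, was at -0.006 and 0.04. Of the stellate cell markers, 5 of 6 were measured on all arrays and 0 of these were higher on 2SA than on WT, with a median of -0.60 against WT and -0.15 against 1SA. Their summed level was 13.3 on WT and 8.49 on 1SA, against 8.62 on 2SA. Sinusoidal endothelium, granulocyte and lymphocyte markers had 0 genes past 2-fold from both others on 2SA in either direction, with medians against WT of -0.11, 0.13 and -0.07.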

How the data were processed

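Per the file headers, the authors used Agilent Feature Extraction 10.10.1.1 on 3 one-colour arrays and deposited spot intensity after background subtraction, without scaling across arrays. Their series matrix held these values times a constant for each array (3.02, 3.08 and 2.81), of unstated origin. The 4 genes and all lists were chosen with earlier results of these data known.

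Spots flagged by the scanner software were left out (148 to 182 per array), and 0 spots were saturated. Log2 intensity was averaged per probe, less the log2 75th percentile (276 to 319). A probe was measured where at least 50% of its spots were well above background (28972 to 30784 probes). Probes were named by RefSeq accession through a table of assembly GRCm38.p6, used for names and gene order only because the arrays use mm9, which named 26762 probes. A gene was taken by its brightest measured probe. Named genes were the 4 genes, the 15 highest by the smaller 2SA difference, the 3 nearest in pattern, up to 3 chromosome neighbours on each side (1 is not reported here), and list genes past 2-fold or brightest. Of the brightest list genes, those that add to a comparison are given. No test was run with 1 array per group. The alternatives were quantile and median scaling, normexp with an offset of 50 (on median spot and background brightness), matrix values, other filters on dim probes and a 3-fold threshold. Python 3.11.15, pandas 2.3.3, numpy 2.4.6, matplotlib 3.10.9, R 4.3.3 and limma 3.58.1 were used.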

Additional observations from a re-analysis of the deposited data

Results flagged for a closer look

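On 4 probes of 3 genes the mutants lay on opposite sides of WT, with 1SA below it and 2SA above. The difference between the mutants was 3.49 on the log2 scale for the brighter Sftpd probe, 3.43 for the dimmer Sftpd probe, 3.33 for Rgs16 and 3.13 for Tinag. These differences were not tested, because each construct had 1 array, and they are among the values for which the genes were chosen. Crygs was above WT in both mutants.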

How the results depend on the processing

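The 93 values of the 4 genes recomputed under alternatives had 0 changes of sign, and 79 of them moved by less than 0.10, the median SD of a difference between repeated spots. The other 14 all moved with normexp, which adds an offset and so pulls dim values together. It gave log2 differences of 2SA from WT, 2SA from 1SA and 1SA from WT of 2.02, 3.23 and -1.21 for the brighter Sftpd probe, 1.99, 2.72 and -0.73 for the dimmer one, 1.63, 2.10 and -0.47 for Tinag, and 3.55, 2.40 and 1.14 for Crygs. For Rgs16 it gave 2.37 from WT and 3.16 from 1SA. The 134 probes high on 2SA became 55 with normexp, 41 with a stricter filter on dim probes, 43 at a 3-fold threshold and 990 with no filter. Ranks by the smaller difference were 7 (brighter Sftpd), 8 (dimmer Sftpd), 3 (Rgs16), 2 (Crygs) and 15 (Tinag) with normexp. With the stricter filter they were 7, 5, 3 and 2 for the same order, and the Tinag probe was too dim to enter. With no filter they were 268, 247, 190, 168 and 252, since many probes near background then enter. Of 112 list medians under alternatives 13 moved by more than 0.10, and the highest in size was 0.62. For other named genes 15 of 80 values moved, all with normexp, under a set of alternatives chosen after seeing the data. Leaving out saturated spots changed nothing, as there were 0. No paired analysis was possible because there was a single array for every construct, and for that reason no replicate could be left out. Precision is limited by the number of arrays, and the scanner error does not cover the spread between livers.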

Other observations

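Some genes of the lists above were well above background on the 2SA array but not on all 3, so they had no place in the counts. Fgf21, a hormone of liver that responds to fasting and sugar, was measured on 2SA only, where it was at least 2.02-fold higher than on either other array. Lrp2, the endocytic receptor megalin of kidney tubule, was 3.96-fold higher on 2SA than on 1SA and was not well above background on WT. Other kidney tubule markers differed from it. Of the 3 measured on all arrays, 0 were higher on 2SA than on WT, while Umod was measured on 1SA only and Slc5a2 on WT only. Rgs18 and Rgs17 of the RGS family and Ager of the lung markers were also measured on 2SA only. Rgs18 was at least 1.47-fold and Ager at least 1.39-fold higher there than on either other array. For Rgs17 no such excess could be given. These genes were dim on 2SA, at 27.8 for Fgf21, 23.2 for Rgs18, 19.0 for Ager and 13.1 for Rgs17. They were not among the values recomputed with normexp. Dimmer probes also counted as measured on 2SA, where the lowest was at -5.75 on the log2 scale, against -4.54 on WT and -4.75 on 1SA. The part of this in the calls on 2SA only was not tested.

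A probe 2 rows from the Tinag spot had the same order as Tinag, with 2SA highest and 1SA lowest. It is placed by the array design at chr12:85252300-85253597 on mm9 and has no gene name in the sources used here. Its intensity was 49.0 on WT and 37.3 on 1SA, against 350.3 on 2SA, with log2 differences of 2.70 from WT and 3.02 from 1SA.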
